A study of Mus musculus with 16 samples.

Results

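Ccr2, Cx3cr1, Ly6c1, Ly6c2, Plac8 and Fn1, taken as markers of monocyte origin and recruitment, were followed together with Csf1r and Itgam. All were measured in F4/80+ adipose tissue macrophages (ATM) sorted from epididymal fat pads. The 8 genes were taken by name, and all 8 were among the 37310 features of the count table. The 16 libraries came from male mice, aged 7 to 10 weeks at the start, that received a high-fat diet (HFD, 60% fat) for 4 weeks (short term, ST-HFD) or 12 weeks (long term, LT-HFD). On each diet duration, 4 mice were wild-type (WT) and 4 carried a myeloid deletion of Irf5 (IRF5-KO), made by crossing Irf5 flox/flox mice with LysM-Cre mice. LysM-Cre is expressed from the Lyz2 locus, so it acts in myeloid cells at large, monocytes and neutrophils included, and not in ATMs alone. Whether the WT mice carried floxed alleles or Cre is not given in the sources used here, and neither is whether same-numbered mice were littermates.

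Circulating monocytes enter adipose tissue and can become macrophages. In the mouse, classical monocytes carry much Ly6C on their surface and follow CCL2 and related chemokines through the receptor CCR2, whereas patrolling monocytes carry little Ly6C and more of CX3CR1, the receptor of fractalkine. Both kinds express CSF1R, the receptor of colony-stimulating factor 1, on which macrophages and patrolling monocytes depend more than classical monocytes do, and both carry CD11b, the integrin chain that Itgam encodes. Resident adipose macrophages, by contrast, are largely maintained with little input from the blood and are known by markers such as Timd4 and Lyve1.

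The libraries held between 3860469 and 4958131 counts on ST-HFD and between 3279332 and 3792898 on LT-HFD. The 3 most abundant features, a miRNA locus and both mitochondrial ribosomal RNAs, took 18.6% to 24.1% of the counts at 4 weeks and, without overlap, 26.1% to 34.5% at 12 weeks. Levels are given as CPM, counts scaled to a common library size, with TMM factors over all 16 libraries. Irf5 itself was at 203 to 252 CPM in the WT and 250.4 to 274 CPM in the IRF5-KO libraries on ST-HFD, and at 170.5 to 213 CPM and 206 to 253 CPM on LT-HFD, so the IRF5-KO label did not go with a lower count over the whole gene. A count per gene cannot show whether single exons were lost. Lyz2, the gene that holds Cre, was at 2968 to 4043 CPM in the 8 WT libraries and at 1395 to 2062 CPM in the 8 libraries labelled IRF5-KO, without overlap. One plot in the study draws the WT libraries with the lower Irf5 level as ST-HFD, whereas the count table labels them 12 weeks. All directions between diet durations below follow the labels of the table and would turn if those labels were exchanged. The summed level of 6 macrophage markers (Adgre1, which encodes F4/80, Cd68, Mertk, Fcgr1, Cd14 and C1qa) was 2716 to 3200 CPM in every library, and Ly6g, which defines neutrophils, had no count in any group. The summed level of 7 fibroblast and preadipocyte markers (Pdgfra, Pdgfrb, Col1a1, Col3a1, Dcn, Lum and Dpt) was 576 to 1380 CPM on ST-HFD and 2585 to 7658 CPM on LT-HFD.

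Ly6c1 and Ly6c2 are neighbouring genes on chromosome 15, and the antibodies that define Ly6C-high monocytes recognise their products. Ly6c2 is the one that classical monocytes mainly express, whereas Ly6c1 is also known in endothelial and other cells. Ly6c1 lies at 75044018 to 75048830 and Ly6c2 at 75108158 to 75111970 (GRCm38), both on the minus strand. Because reads can be assigned to either gene only where the sequences differ, the coding sequences are shown first. Over 396 coding bases (GRCm38), 387 were identical and 9 differed. The first 90 coding bases held 6 of the 9 differences, shown in capitals, 5′ to 3′.
Ly6c1: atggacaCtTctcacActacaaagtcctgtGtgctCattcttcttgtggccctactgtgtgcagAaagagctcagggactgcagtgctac
Ly6c2: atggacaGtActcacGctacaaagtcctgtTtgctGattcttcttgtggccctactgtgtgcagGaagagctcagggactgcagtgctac
Coding bases 67 to 156 had no difference and read the same in both genes.
Ly6c1 and Ly6c2: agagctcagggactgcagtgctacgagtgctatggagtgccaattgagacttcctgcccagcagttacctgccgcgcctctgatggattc
Over the annotated exons of all transcripts, 9.05% of the 100-base stretches of Ly6c1 also occurred in Ly6c2, and 5.81% of those of Ly6c2 occurred in Ly6c1. Counts of these 2 genes are therefore uncertain to that extent, since reads from a shared stretch may have been left out or assigned to either one.

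Compared per length, as CPM per kb of annotated exon, the genes differed widely in level. In WT ATMs on ST-HFD, Csf1r, the receptor gene that macrophages need for survival, was highest at 325 ± 36.8 CPM per kb (SD, n = 4). Fn1, which encodes fibronectin, at 134 ± 34.4 CPM per kb, and Itgam, at 125 ± 15.5 CPM per kb, followed and did not differ from each other beyond their spread. Ccr2 was at 26.2 ± 4.95 and Cx3cr1 at 4.67 ± 2.12 CPM per kb. Plac8, a small cysteine-rich protein of monocytes and granulocytes, at 1.45 ± 0.94 CPM per kb, and Ly6c1, at 1.23 ± 0.29 CPM per kb, were close to each other. Ly6c2 was lowest, at 0.30 ± 0.33 CPM per kb. On LT-HFD the order in WT ATMs was Csf1r (212 ± 25.4 CPM per kb), Itgam (84.8 ± 10.8), Fn1 (55.2 ± 13.6), Ccr2 (20.3 ± 3.26), Ly6c1 (9.27 ± 7.82), Plac8 (3.64 ± 3.96), Cx3cr1 (2.34 ± 0.40) and Ly6c2 (0.38 ± 0.32), so that Itgam stood above Fn1, and Ly6c1 above Cx3cr1 in the means. The intervals of mean ± SD of Ly6c1, Plac8 and Cx3cr1 overlapped there.

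**Figure D1:**
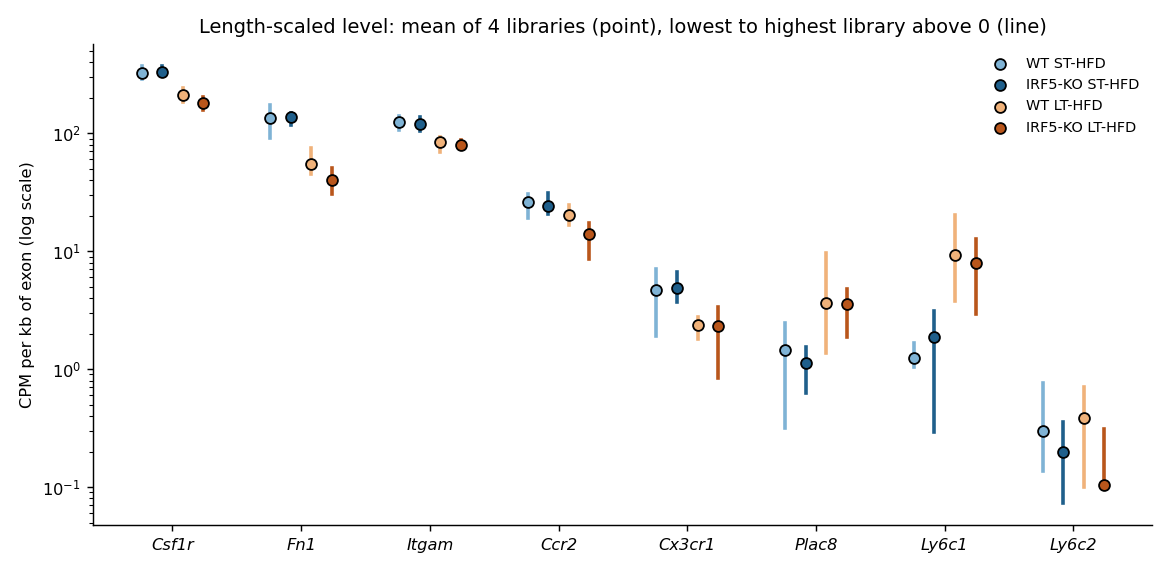
Level of the 8 genes per kb of annotated exon (CPM per kb, log scale) in the 4 groups; points are means of 4 libraries and lines run from the lowest to the highest library above 0. Csf1r was highest and Ly6c2 lowest in every group, and the LT-HFD points of Csf1r, Fn1 and Itgam lie below their ST-HFD points while those of Ly6c1 lie above.

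Between 4 and 12 weeks of HFD these genes went in opposite directions. The mice of both durations started at the same ages, so age at harvest differed with the duration, and diet duration, age and any processing batch cannot be told apart. Between LT-HFD and ST-HFD in WT ATMs, 7 of the 8 genes passed the filter on low counts, which Ly6c2 did not, and 4 passed an adjusted p of 0.05 (edgeR, quasi-likelihood, all 16 libraries): Fn1, Csf1r and Itgam were lower and Ly6c1 was higher. Of all 11560 genes tested, 25.3% passed this threshold, 12.1% higher and 13.2% lower. In IRF5-KO ATMs, 6 of 7 passed, with Ccr2 and Cx3cr1 also lower, where 32.8% of all genes did, 15.6% higher and 17.2% lower. The median log2 fold change of the 7 genes was -0.56 in WT and -0.80 in IRF5-KO, where all tested genes had medians of 0.02 and 0.04. At an unadjusted p under 0.05 the counts were 6 of 7 in WT and 7 of 7 in IRF5-KO, where 35.9% and 42.8% of all genes passed, and with DESeq2 they were 5 and 7, where 26.4% and 33.4% did. The WT and IRF5-KO comparisons contrast different libraries but come from the same fit, so they share its filter, scaling and estimates of spread. With the 3 most abundant features left out, whose share separates the durations, the counts stayed at 4 and 6. Ly6c1 and Plac8 were among the 7 genes through their LT-HFD libraries, since on ST-HFD alone they did not pass the filter.

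**Figure D2:**
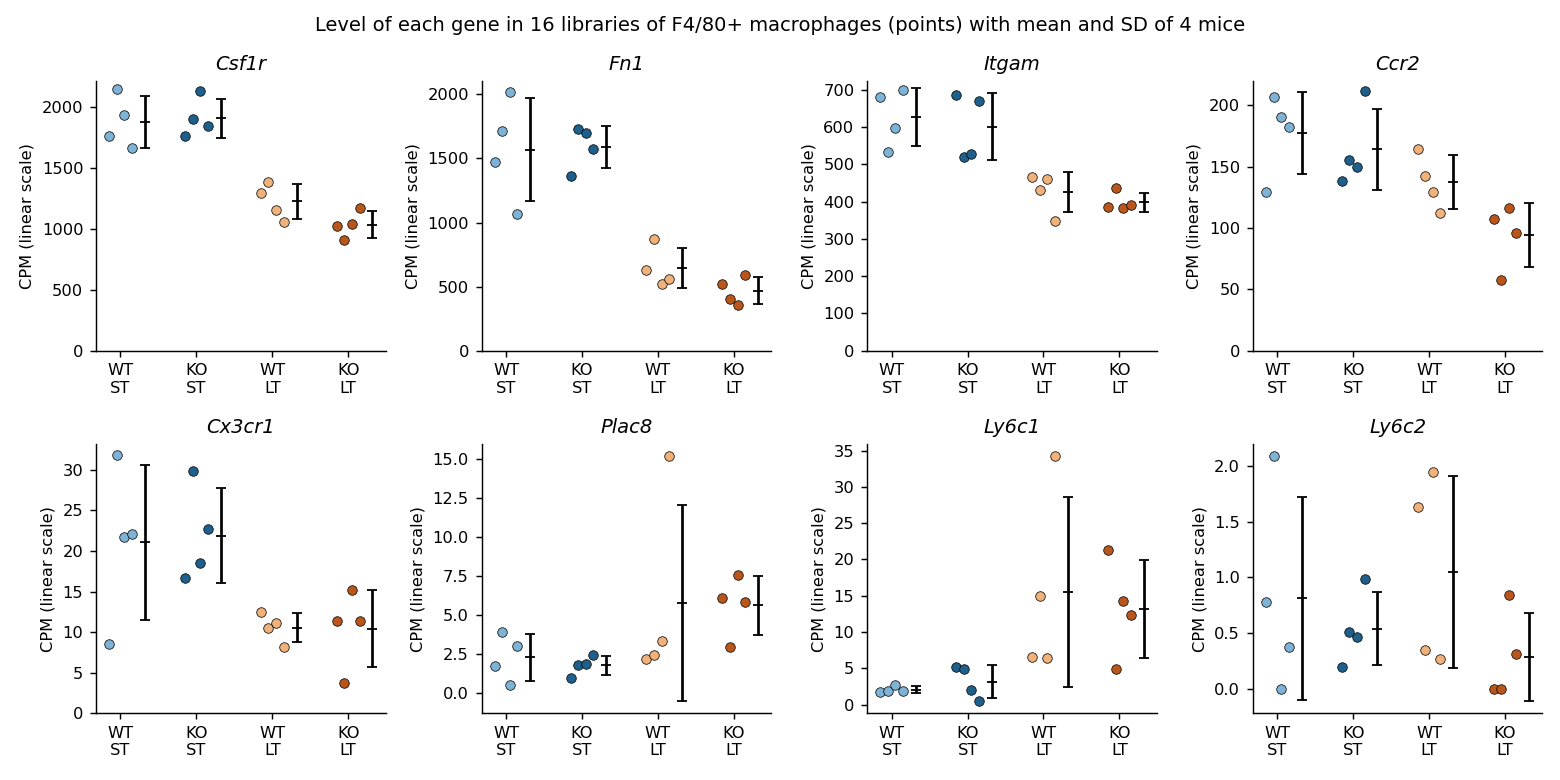
CPM (linear scale) of each gene in every library, 4 mice per group (points), with the mean and SD of the group beside them; ST and LT are 4 and 12 weeks of HFD. The ST-HFD and LT-HFD points of Fn1, Csf1r and Itgam do not overlap in either genotype, and 1 WT LT-HFD library stands above the rest for Plac8 and Ly6c1.

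Fn1 changed most among the genes that fell. The gene lies on chromosome 1 at 71585520 to 71653200, minus strand. Fibronectin is a matrix protein, and its transcript is abundant in monocyte-derived and in some resident macrophages as well as in fibroblasts. In replicates 1 to 4 it was at 1469, 1714, 2021 and 1070.2 CPM in WT on ST-HFD and at 626, 873, 522 and 557 CPM on LT-HFD. In IRF5-KO it was at 1365, 1727, 1699.7 and 1573 CPM on ST-HFD and at 517, 405, 356 and 593 CPM on LT-HFD. Every LT-HFD library lay below every ST-HFD library of its genotype. The log2 fold change was -1.28 (standard error 0.20, edgeR adjusted p = 1.69e-04) in WT, which is 2.43-fold lower, and -1.77 (standard error 0.21, edgeR adjusted p = 5.85e-06) in IRF5-KO, which is 3.40-fold lower. Fn1 fell while the summed level of the 7 fibroblast markers, cells that also make fibronectin, was higher in all 8 LT-HFD libraries than in any ST-HFD library.

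Csf1r and Itgam, the receptor and the integrin chain that all monocytes carry, fell by smaller amounts with less spread. Csf1r was at 1764, 2149, 1934 and 1663 CPM in WT on ST-HFD and at 1297, 1387, 1154 and 1057 CPM on LT-HFD. In IRF5-KO the values were 1759, 1898, 2130.1 and 1839 CPM and then 1019, 905, 1038 and 1173 CPM. The 8 LT-HFD libraries were all below the 8 ST-HFD libraries, and the log2 fold changes were -0.62 (standard error 0.12, edgeR adjusted p = 0.00100) in WT and -0.88 (standard error 0.12, edgeR adjusted p = 3.13e-05) in IRF5-KO. Itgam, on chromosome 7 at 128062640 to 128118491 on the plus strand, was at 682, 533, 598 and 701 CPM in WT on ST-HFD and at 466, 431, 459.8 and 348 CPM on LT-HFD. In IRF5-KO it was at 688, 519.9, 528 and 669.6 CPM and at 385, 437, 384 and 390.1 CPM. The durations did not overlap here either, with log2 fold changes of -0.56 (standard error 0.13, edgeR adjusted p = 0.00320) and -0.59 (standard error 0.13, edgeR adjusted p = 0.00173). These 3 genes kept their direction and an adjusted p under 0.05 in every alternative run for the duration comparisons. Csf1r overlaps Hmgxb3 and Fn1 overlaps an antisense gene on the opposite strand, Itgam overlaps Gm49368 on the same strand, and the strand setting of the counting is not given.

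Adgre1 encodes the protein on which the cells were sorted. Its level was 507 to 728 CPM on ST-HFD and 597 to 995 CPM on LT-HFD, and its log2 fold change was 0.20 (edgeR adjusted p = 0.356) in WT and 0.46 (edgeR adjusted p = 0.0235) in IRF5-KO, where it rose. The 6 macrophage markers as a list had a median of -0.02 in WT and -0.29 in IRF5-KO, where 2 rose and 1 fell. With each library scaled to its 6 macrophage markers in place of TMM, a setting chosen after seeing the data, the log2 fold changes in WT were -1.26 for Fn1, -0.59 for Csf1r and -0.53 for Itgam, and in IRF5-KO -1.67, -0.80 and -0.51, all with an edgeR adjusted p under 0.05. That scaling moved the median of all genes in IRF5-KO to 0.12, and 2175 genes were then higher and 1581 lower, against 1801 and 1986 with TMM. In whole sorted populations, fewer cells of a type and less RNA per cell cannot be told apart.

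Ccr2 and Cx3cr1 are the chemokine receptors that tell classical from patrolling monocytes, and both genes lie on chromosome 9 (GRCm38), Ccr2 at 124101950 to 124113557 on the plus strand and Cx3cr1 at 119901616 to 120069879 on the minus strand. Ccr2 was at 129, 207, 191 and 182 CPM in WT on ST-HFD and at 165, 143, 129 and 113 CPM on LT-HFD, and these ranges overlapped. In IRF5-KO it was at 139, 156, 150.2 and 212 CPM on ST-HFD and at 108, 57.5, 116 and 96.4 CPM on LT-HFD, without overlap. Ccr2 fell in IRF5-KO by 0.80 on the log2 scale (standard error 0.20, edgeR adjusted p = 0.00543), and in WT its log2 fold change was -0.37 (standard error 0.20, edgeR adjusted p = 0.193). The difference between these changes, the interaction of genotype and duration, was -0.43 with a 95% confidence interval from -1.02 to 0.16 (edgeR adjusted p = 0.969), so a larger fall in IRF5-KO was not shown.

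Cx3cr1 rested on fewer reads, 14 to 137 counts per library. It was at 8.59, 31.8, 21.8 and 22.1 CPM in WT on ST-HFD, where replicate 1 was far below the other libraries, and at 12.5, 10.5, 11.1 and 8.16 CPM on LT-HFD. In IRF5-KO it was at 16.6, 29.8, 18.5 and 22.6 CPM and at 11.3, 3.80, 15.2 and 11.4 CPM, with replicate 2 lowest on LT-HFD and no overlap between durations. The log2 fold change was -1.07 in IRF5-KO (standard error 0.36, edgeR adjusted p = 0.0312) and -0.99 in WT (standard error 0.36, edgeR adjusted p = 0.0542), which DESeq2 gave an adjusted p of 0.0334. The IRF5-KO call was lost in 4 of 8 fits that left out a library (without ST-HFD replicate 2 or 4, or LT-HFD replicate 1 or 2, edgeR adjusted p up to 0.0984), and without WT ST-HFD replicate 1 the WT value was -1.24 (edgeR adjusted p = 0.00858). Its annotated span overlaps several other genes on both strands.

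Cx3cr1 reads made up 6.22% to 16.1% of the reads of Cx3cr1 and Ccr2 together at 4 weeks, and 6.19% to 11.6% at 12 weeks. The log2 ratio of Cx3cr1 to Ccr2 counts was -3.19 ± 0.51 (SD, n = 4) in WT on ST-HFD and -3.68 ± 0.11 on LT-HFD, and in IRF5-KO -2.92 ± 0.37 and -3.27 ± 0.42. The smallest p among the 4 comparisons of this ratio was 0.143 in a two-sided exact permutation test of 4 against 4 (0.381 after adjustment over 8 ratio tests), where 70 splits allow no p under 0.0286. With adjustment over 8 tests, a single comparison could not have passed at 0.05, so these tests do not bear on whether the balance of the receptors differed.

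Within groups, after the mean of each group was subtracted, Ccr2 and Cx3cr1 went together more than the other pairs. Over 16 libraries, Pearson's r was 0.870 (permutation p = 0.00297) and Spearman's rho was 0.735 (permutation p = 0.00965). Fn1 and Csf1r followed with r = 0.737 (permutation p = 0.00693) and rho = 0.700 (permutation p = 0.0141). None of the 28 pairs passed adjustment, with adjusted p = 0.0832 and 0.0970 for Pearson's r and 0.197 for both rho values of these 2. Without the 2 libraries farthest from the median, r was 0.692 for Ccr2 and Cx3cr1 and 0.643 for Fn1 and Csf1r.

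**Figure D3:**
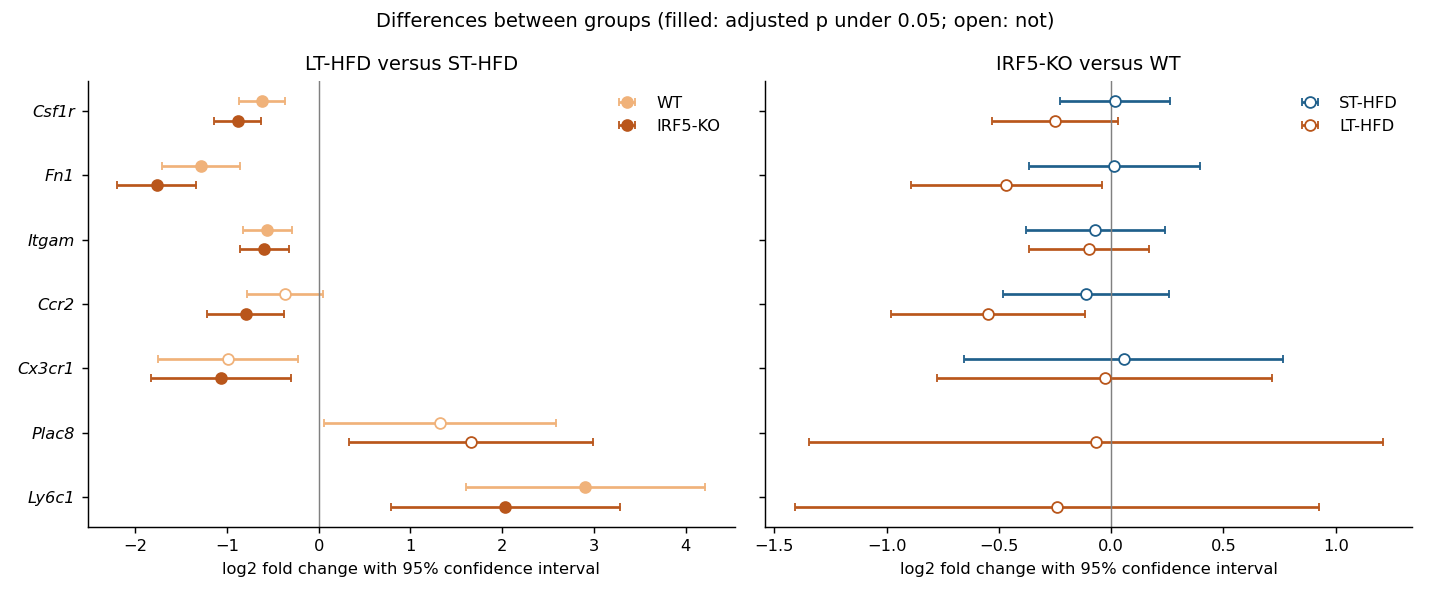
Log2 fold change (point) with its 95% confidence interval (line) of the 7 genes tested, LT-HFD versus ST-HFD in each genotype on the left and IRF5-KO versus WT on each duration on the right; filled points had an edgeR adjusted p under 0.05. The left panel holds 10 filled points, with Ly6c1 to the right of 0 and Fn1 farthest to the left, and the right panel holds none.

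Ly6c1 went the other way and rose with diet duration, from very low counts. On the ST-HFD libraries alone Ly6c1 did not pass the filter on low counts, so it entered the duration tests through its LT-HFD libraries. Without that filter its log2 fold change was 2.88 in WT and 2.01 in IRF5-KO. It was at 1.76, 1.86, 2.78 and 1.88 CPM in WT on ST-HFD (8 to 11 counts) and at 6.51, 15.0, 6.40 and 34.3 CPM on LT-HFD (23 to 126 counts). In IRF5-KO it was at 5.21, 4.89, 2.08 and 0.492 CPM on ST-HFD and at 21.3, 4.88, 14.3 and 12.4 CPM on LT-HFD. The durations did not overlap in WT and overlapped in IRF5-KO, where LT-HFD replicate 2 lay among the ST-HFD libraries. The log2 fold change was 2.91 (standard error 0.62, edgeR adjusted p = 0.00214) in WT and 2.03 (standard error 0.59, edgeR adjusted p = 0.0143) in IRF5-KO. In WT it was 2.15 (edgeR adjusted p = 0.0136) without LT-HFD replicate 4, and in IRF5-KO the call was lost without LT-HFD replicate 1 (log2 fold change 1.70, edgeR adjusted p = 0.0529).

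Both Ly6c1 and fibroblast transcripts were higher on LT-HFD. The 7 fibroblast markers all rose in both genotypes, with median log2 fold changes of 3.12 in WT and 2.95 in IRF5-KO. WT LT-HFD replicate 4 and IRF5-KO LT-HFD replicate 1 had the highest sums of these markers, 7658 and 6101 CPM, and the highest Ly6c1 levels, 34.3 and 21.3 CPM. IRF5-KO ST-HFD replicate 4 had the lowest sum, 576 CPM, and the lowest Ly6c1 level, 0.49 CPM from 2 counts. The order was not the same throughout, since WT LT-HFD replicate 2 had the third highest Ly6c1 level, 15.0 CPM, at a sum of 2848 CPM, below IRF5-KO LT-HFD replicate 4 with 12.4 CPM at 4741 CPM. Out of 9765 genes whose counts averaged 20 or more, those most like Ly6c1 over the 16 libraries were Cd248 (Pearson's r of log2 CPM 0.979, and 0.943 for deviations from group means), Mfap5 (0.965 and 0.940) and Fermt2 (0.965 and 0.916). Cd248 encodes endosialin, a surface protein of fibroblasts and pericytes, and Mfap5 a microfibril protein of the matrix. The part of fibroblast transcripts in the rise of Ly6c1 was not tested. The summed level of 5 endothelial markers was 11.3 to 82.8 CPM on ST-HFD and 13.1 to 71.1 CPM on LT-HFD, with 0 of 4 tested markers changed in either genotype by edgeR, none of them at an unadjusted p under 0.05.

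**Figure D4:**
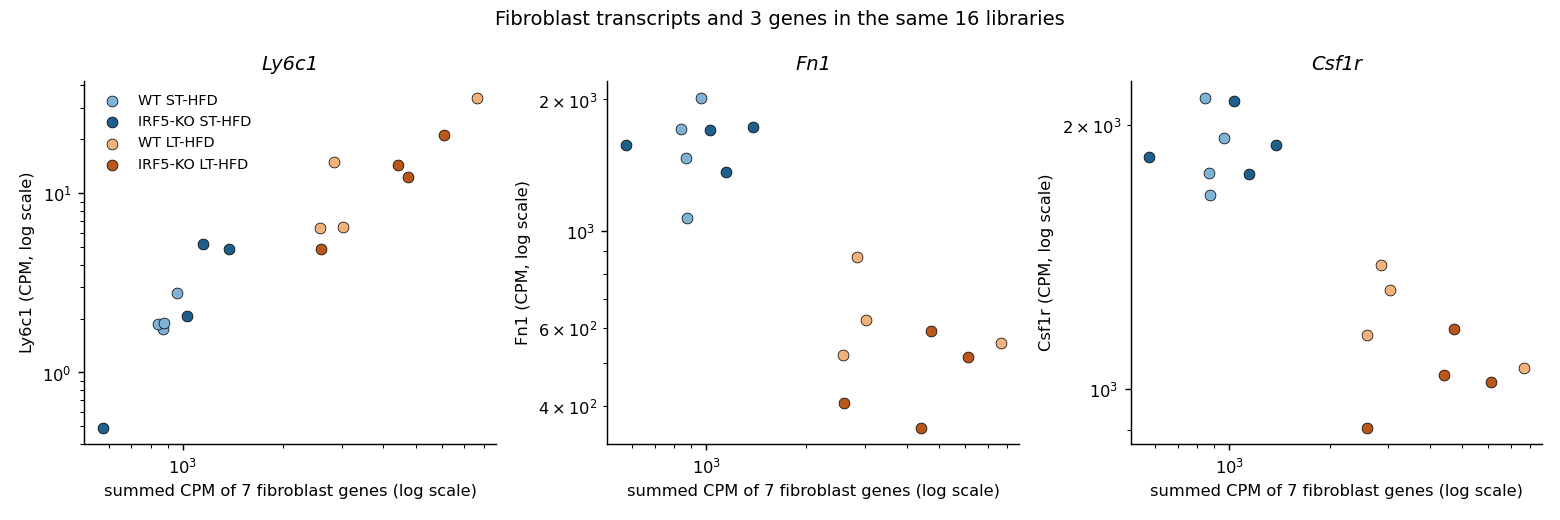
Summed CPM of 7 fibroblast and preadipocyte markers (x axis, log scale) against the CPM of Ly6c1, Fn1 and Csf1r (y axes, log scale) in the 16 libraries, coloured by group. Ly6c1 is highest in the libraries with the highest sums, 34.3 CPM at 7658 CPM, while the LT-HFD libraries of Fn1 and Csf1r, all at sums of 2585 CPM or more, lie below the ST-HFD libraries.

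Ly6c2, the gene that would track classical monocytes most closely, was barely detected. Its counts in replicates 1 to 4 were 4, 9, 0 and 2 in WT on ST-HFD, 1, 2, 2 and 4 in IRF5-KO on ST-HFD, 6, 1, 7 and 1 in WT on LT-HFD, and 0, 0, 3 and 1 in IRF5-KO on LT-HFD. At most this was 2.09 CPM, and a count of 0 in 3 libraries allows up to 0.757, 0.826 and 0.811 CPM, a limit for counting error only. It did not pass the filter on low counts, and without that filter its log2 fold changes had unadjusted p of 0.10 or more in edgeR in every comparison, so no difference was detectable at this depth. The log2 ratio of Ly6c2 to Ly6c1 counts was -1.88 ± 1.99 (SD, n = 4) in WT and -2.05 ± 2.13 in IRF5-KO on ST-HFD, and -3.70 ± 2.31 and -5.28 ± 1.44 on LT-HFD. The smallest p among its 4 comparisons was 0.0571 (exact permutation test, two-sided, adjusted p = 0.381), between durations in IRF5-KO, under the same limit.

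Plac8, on chromosome 5 at 100553725 to 100572245 on the minus strand and with 2 to 56 counts per library, was at 1.76, 3.95, 0.506 and 3.02 CPM in WT on ST-HFD and at 2.17, 2.45, 3.34 and 15.2 CPM on LT-HFD. In IRF5-KO it was at 1.003, 1.80, 1.85 and 2.46 CPM on ST-HFD and at 6.08, 2.98, 7.58 and 5.87 CPM on LT-HFD, where the durations did not overlap. WT LT-HFD replicate 4 was far above the other WT libraries, and it is the library with the highest fibroblast sum, 7658 CPM against 2585 to 3031 CPM in the other WT LT-HFD libraries, whose part in the level of Plac8 was not tested. The log2 fold change was 1.66 (standard error 0.63, edgeR adjusted p = 0.0515) in IRF5-KO, which DESeq2 gave an adjusted p of 0.0304, and 1.32 (standard error 0.60, edgeR adjusted p = 0.122) in WT. Without WT LT-HFD replicate 4 the WT value was 0.19 (edgeR adjusted p = 0.850).

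Counted over all 8 genes, 4 did not overlap between durations in WT, where 26.1% of tested genes did not, and 6 did not in IRF5-KO, where 29.4% did not. Between genotypes 0 of 8 were without overlap on either duration, against 1.54% (ST-HFD) and 3.04% (LT-HFD) of tested genes.

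Between genotypes, no gene of the 8 passed the test on either duration. On ST-HFD, 5 passed the filter (Ccr2, Cx3cr1, Fn1, Csf1r and Itgam), 0 passed at an adjusted p of 0.05 in edgeR or in DESeq2, and 0 had an unadjusted p under 0.05. Of all 10958 genes, 0.00913% passed the adjusted threshold in edgeR, 0.0183% in DESeq2 and 1.84% the unadjusted one. With the replicate number as a block, 2 of all genes and 0 of these 5 passed in edgeR. Their log2 fold changes lay between -0.11 for Ccr2 and 0.06 for Cx3cr1. The 95% confidence interval ran from -0.23 to 0.26 for Csf1r and from -0.65 to 0.76 for Cx3cr1, so that the bounds on a difference were narrow for the first and wide for the second. Ly6c1 and Plac8 were not tested there, and without a filter their log2 fold changes were 0.62 (edgeR adjusted p = 0.887) and -0.41 (edgeR adjusted p = 0.965).

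On LT-HFD, 7 genes were tested and 0 had an adjusted p under 0.05 in edgeR or DESeq2, against 0.0182% of 10987 genes in edgeR, 0.0091% in each direction, and 0.0728% in DESeq2. The log2 fold change was below 0 for all 7, with a median of -0.24 where all genes had 0.00, and the direction of Cx3cr1, Ly6c1 and Plac8 turned in some of the alternatives. The resident macrophage markers were below 0 in 6 of 6, with a median of -0.71, 5 of them at an unadjusted p under 0.05 and 0 at an adjusted one in edgeR, and the lineage factors in 10 of 10, with a median of -0.17. Ccr2 had the lowest value, -0.55 (standard error 0.20, unadjusted p = 0.0175, edgeR adjusted p = 0.853), and Fn1 followed at -0.47 (standard error 0.19, unadjusted p = 0.0341, edgeR adjusted p = 0.853). Both were among the 5.72% of genes with an unadjusted p under 0.05. In the libraries labelled IRF5-KO, 3 of 4 Ccr2 values were below all WT values, and the fourth, replicate 3 at 116 CPM, lay above WT replicate 4 at 113 CPM. Csf1r was at -0.25 (95% confidence interval -0.53 to 0.03) and Itgam at -0.10 (95% confidence interval -0.37 to 0.17).

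The interaction of genotype and diet duration asks whether the change with duration differed between genotypes. It passed for 0 of the 7 genes in edgeR and in DESeq2, and for 0 of all 11560 genes, of which 3.93% had an unadjusted p under 0.05, none of the 7 among them. The values nearest to a difference were those of Fn1, -0.48 (95% confidence interval -1.08 to 0.11), and of Ccr2, given above. For Ly6c1 the interval, from -2.70 to 0.95, left room for a difference in either direction.

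Genes that act with these 8 were taken as lists, and their counts between durations are to be read against the shares of all genes that passed, in WT 12.1% higher and 13.2% lower and in IRF5-KO 15.6% higher and 17.2% lower. Of the 7 ligands of CCR2, CX3CR1 and CSF1R, 6 were tested between durations. In WT 1 rose, Csf1, which encodes the main ligand of CSF1R (log2 fold change 2.06, standard error 0.42, edgeR adjusted p = 0.00134), and 5 did not pass. In IRF5-KO Csf1 rose (1.64, edgeR adjusted p = 0.00509) and the CCR2 ligands Ccl12 (-1.46, edgeR adjusted p = 0.00941) and Ccl7 (-1.55, edgeR adjusted p = 0.0137) fell. Csf1 thus rose in the same ATM libraries in which its receptor transcript fell. Fibroblasts also express Csf1, and the share of fibroblast transcripts in its rise was not tested. Between genotypes on LT-HFD, 0 of 5 ligands tested passed in edgeR. An unadjusted p under 0.05 was held by 3, Ccl8 (-1.14), Ccl12 (-1.17) and Ccl7 (-0.90), where 5.72% of all genes had one. DESeq2, in which 0.0728% of all genes passed, gave Ccl8 an adjusted p of 0.00519, Ccl12 one of 0.0330 and Ccl7 one of 0.929.

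Of 17 other genes of Ly6C-high monocytes, 16 were tested between durations, and in WT 4 rose, 1 fell and the median log2 fold change was 0.37. In IRF5-KO 4 rose, 2 fell, 8 of 16 log2 fold changes were above 0 and the median was -0.03. The called shares, 5 and 6 of 16, were near the 25.3% and 32.8% of all genes. Mgst1, a microsomal glutathione transferase, rose on the log2 scale by 1.32 in WT (edgeR adjusted p = 1.30e-04) and 1.39 in IRF5-KO (edgeR adjusted p = 5.51e-05), and S100a6, a calcium-binding protein, by 0.60 and 0.63 (edgeR adjusted p = 0.00231 and 0.00123). Samhd1, a nucleotide hydrolase, fell by 0.48 and 0.55 (edgeR adjusted p = 0.00520 and 0.00162). Between genotypes 1 of 16 was lower on LT-HFD, Lyz2 (-1.04, edgeR adjusted p = 0.0484, DESeq2 adjusted p = 1.36e-10), which carries Cre. The edgeR call was lost with the replicate block, with scaling to macrophage markers and in 7 of 8 fits without a single library, where no gene passed as lower; the eighth left out WT LT-HFD replicate 4. On ST-HFD the log2 fold change of Lyz2 was -0.97 (edgeR adjusted p = 0.106, DESeq2 adjusted p = 3.15e-09). Of 8 genes of Ly6C-low monocytes, 6 were tested. Ace, the angiotensin-converting enzyme, rose by 2.25 in WT and 2.10 in IRF5-KO (edgeR adjusted p = 7.45e-04 and 0.00103), Adgre4 fell (-0.85 and -0.62, edgeR adjusted p = 0.00833 and 0.0423), and 4 did not pass in either genotype. In WT on LT-HFD Mgst1 (77.5 CPM against 33.9 to 50.0 CPM), Ace (309 CPM against 73.7 to 105 CPM) and S100a6 (294 CPM) were highest in replicate 4. That is the library with the highest fibroblast sum, and the part of fibroblast transcripts in the rise of these genes was not tested.

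Among 11 genes of integrin chains and their adhesion partners, Itga4 was the 1 that passed in WT (log2 fold change -0.94, edgeR adjusted p = 2.77e-05), where 25.3% of all genes did. It encodes a chain of the receptor by which monocytes bind VCAM-1 and fibronectin. In IRF5-KO Itga4 (-0.74, edgeR adjusted p = 1.67e-04) and Icam1 (-0.68, edgeR adjusted p = 0.0464) fell. Itgb2, the beta chain that pairs with CD11b, had log2 fold changes of -0.36 (edgeR adjusted p = 0.12) and -0.22 (edgeR adjusted p = 0.315), with an unadjusted p under 0.05 in WT alone. Of 10 transcription factors of the myeloid lineage, 5 fell in WT and 7 in IRF5-KO, where 13.2% and 17.2% of all genes fell. None of the 10 rose, and their medians were -0.41 and -0.70. Zeb2 (-0.78 and -1.07, edgeR adjusted p = 1.47e-04 and 4.86e-06) and Klf4 (-1.30 and -1.83, edgeR adjusted p = 0.00211 and 9.59e-05) fell in both genotypes, and so did Spi1, which encodes PU.1 (-0.44 and -0.52, edgeR adjusted p = 0.0213 and 0.00643). Of the 6 resident macrophage markers (Timd4, Lyve1, Folr2, Cd163, Mrc1 and Cbr2), 2 fell in WT and 6 in IRF5-KO, against the same 13.2% and 17.2% of all genes. Their medians were -0.62 and -1.51. Among the markers of cells other than macrophages and fibroblasts that passed the filter, 1 of 2 mesothelial ones rose in each genotype. In IRF5-KO, 1 of 1 neutrophil, 1 of 1 plasmacytoid dendritic cell, 1 of 1 T cell and 1 of 4 adipocyte markers fell, and in WT none of these passed. The other neutrophil, plasmacytoid dendritic cell and T cell markers were below the filter, so these falls rest on single genes and do not describe the cell types. No eosinophil, conventional dendritic cell or B cell marker passed in either genotype, and no NK cell marker was tested. The summed levels of these lists, the endothelial one aside, stayed under 50 CPM in every library.

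**Figure D5:**
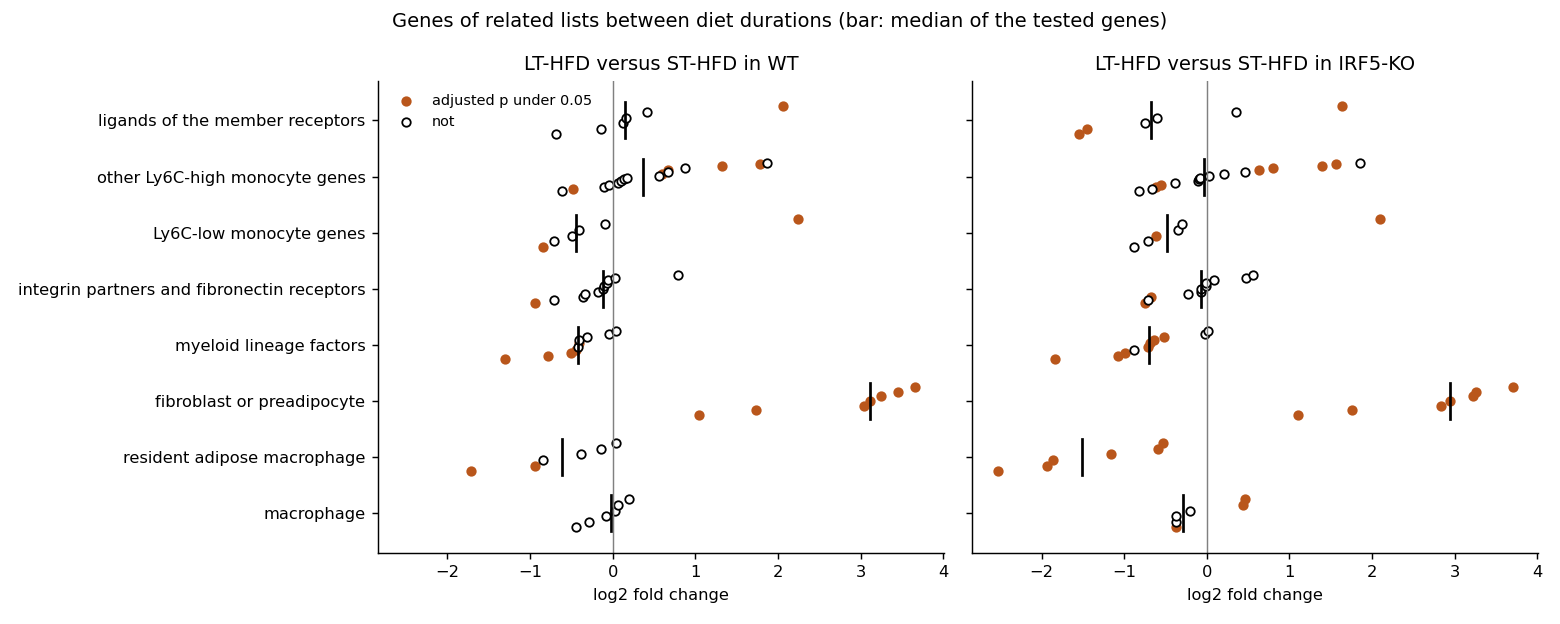
Log2 fold change between LT-HFD and ST-HFD of each tested gene of 8 lists (points; filled where the edgeR adjusted p was under 0.05) in WT on the left and IRF5-KO on the right, with the median of each list as a bar. Fibroblast markers lie far to the right, with medians of 3.12 and 2.95, and lineage factors and resident markers lie mostly to the left.

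The genes most like the others over the 16 libraries, given as a description in which the shift between durations is shared by all points, were Cd97, Zfp282 and Rasgrp4 for Ccr2 (r from 0.868 to 0.894), Fzr1, Plcl1 and Usp34 for Cx3cr1 (0.873 to 0.948), and Oat, Mnda and Spin1 for Plac8 (0.854 to 0.897). For Fn1 they were Iqgap2, Jup and Ppp1r9b (0.979 to 0.983), for Csf1r Plxnd1, Nav1 and Dnm2 (0.983 to 0.986), and for Itgam Smc2, Fam38a and Smap2 (0.964 to 0.972). For Ly6c2, with its few counts, the values reached 0.720 at most, for Bend3.

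Promoter sequences from RefSeq (GRCm38.p6, 250 bases before to 50 after an annotated start) matched 6 of the 8 genes, and Fn1 and Csf1r were not matched. Those of Ccr2, Cx3cr1 and Itgam, which fell together in IRF5-KO, and of Ly6c1 and Ly6c2, whose levels differ, are shown with motif matches in capitals. The motifs searched on both strands were a PU.1-type motif (GAGGAAGT), held by 3.20% of 32851 promoters of this length, an interferon-response (ISRE) type motif, held by 3.44%, and a C/EBP-type motif (TTNNGNAA), a loose one held by 40.7%.
Ccr2, chr9:124101933-124102232, plus strand: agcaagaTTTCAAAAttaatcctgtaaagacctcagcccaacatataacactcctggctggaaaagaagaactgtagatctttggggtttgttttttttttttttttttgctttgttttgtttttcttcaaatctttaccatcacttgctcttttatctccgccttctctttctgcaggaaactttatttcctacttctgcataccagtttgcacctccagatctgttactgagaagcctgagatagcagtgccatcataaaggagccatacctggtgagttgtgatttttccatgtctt
Cx3cr1, chr9:120068247-120068546, minus strand: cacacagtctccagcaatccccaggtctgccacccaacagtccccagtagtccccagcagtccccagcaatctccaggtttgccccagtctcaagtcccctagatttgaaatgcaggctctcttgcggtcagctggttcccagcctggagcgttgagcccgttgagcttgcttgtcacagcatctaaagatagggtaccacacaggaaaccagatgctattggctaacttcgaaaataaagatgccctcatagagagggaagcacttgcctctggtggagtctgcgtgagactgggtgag
Itgam, chr7:128062390-128062689, plus strand: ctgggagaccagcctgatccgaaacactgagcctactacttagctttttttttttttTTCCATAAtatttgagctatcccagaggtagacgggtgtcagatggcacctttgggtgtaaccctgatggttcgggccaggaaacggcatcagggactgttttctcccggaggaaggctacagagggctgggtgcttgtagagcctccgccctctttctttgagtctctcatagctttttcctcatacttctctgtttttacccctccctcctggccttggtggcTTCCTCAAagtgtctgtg
Ly6c1, chr15:75048614-75048913, minus strand: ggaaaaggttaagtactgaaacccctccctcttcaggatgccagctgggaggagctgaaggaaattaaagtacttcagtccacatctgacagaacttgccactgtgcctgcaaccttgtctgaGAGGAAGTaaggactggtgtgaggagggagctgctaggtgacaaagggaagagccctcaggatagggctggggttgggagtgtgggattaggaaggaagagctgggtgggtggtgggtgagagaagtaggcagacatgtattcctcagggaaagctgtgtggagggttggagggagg
Ly6c2, chr15:75111888-75112187, minus strand: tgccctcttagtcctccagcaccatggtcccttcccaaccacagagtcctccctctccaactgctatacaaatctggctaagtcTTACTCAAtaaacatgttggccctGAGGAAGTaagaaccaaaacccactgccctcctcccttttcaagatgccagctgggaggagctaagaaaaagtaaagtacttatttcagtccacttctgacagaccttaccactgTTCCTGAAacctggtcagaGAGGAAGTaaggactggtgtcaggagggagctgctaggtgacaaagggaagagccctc
The C/EBP-type motif matched at 1 place in the Ccr2 window and at 2 places each in the Itgam and Ly6c2 windows. The PU.1-type motif matched at 1 place in the Ly6c1 window and at 2 in that of Ly6c2, the gene with the lower counts. It matched in none of the windows of Ccr2, Cx3cr1 and Itgam. The interferon-response type motif matched in none of the 5. The table held a second, overlapping window for Ly6c1, which ends inside the PU.1-type match shown above and so had no match. It also held a second one for Ly6c2, which had the same number of matches, and 2 windows for Plac8, each with 1 C/EBP-type match. A match is a description of these letters and not a bound site.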

How the data were processed

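RNA of F4/80+ ATMs from 16 mice was sequenced as 2 × 100 base pairs from stranded total RNA libraries. Per the submitters' processing notes and the methods, the authors trimmed reads with fastp 0.19.11, aligned them to mm10 with STAR 2.7.3a and deposited raw counts per gene, without normalization. The annotation release and the strand setting are not given in the sources used here. No 2 libraries of a group were duplicates. Replicates were separate numbered samples, and p-values measure the spread between them.

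The tests used edgeR 4.0.16 under R 4.3.3: filterByExpr (minimum count 10), TMM, the quasi-likelihood test and Benjamini-Hochberg adjustment over all genes tested, called at 0.05. Genotypes were fitted within each duration, durations and the interaction over all 16 libraries. DESeq2 1.42.0, RLE factors, other filters, removal of the 3 most abundant features, summed Ly6c1 and Ly6c2 counts, a replicate block, other sets of libraries and leaving out each library were alternatives. log2 CPM used a prior count of 2 and ratios a pseudocount of 0.5. Exon lengths came from the GRCm38 annotation, which matched 32620 of 37310 features. The edgeR and DESeq2 tests were tried on simulated counts with known changes, and the permutation tests were not.

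The 8 genes and all lists were chosen with earlier results of these data known. From each list at most 4 genes with the smallest p in a comparison were named, some with the value in the other genotype, and the 3 genes most like each of the 8 by Pearson's r. A gene that this rule would name is not reported here. Same-numbered WT and IRF5-KO libraries correlated in their deviations on ST-HFD (0.179 to 0.483, other pairs up to 0.467), which is a hint of pairing from the data and not a stated one, and those on LT-HFD (-0.151 to 0.233) or across durations did not. All main tests were unpaired, and the block was an alternative.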

Additional observations from a re-analysis of the deposited data

Results flagged for a closer look

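In 32 groups of 4 libraries, 8 genes in 4 groups each, 3 held a library whose gap to the nearest other library was a larger part of the group's range than Dixon's 95% critical value, and chance marks about 1 in 20 groups. Plac8 in WT LT-HFD replicate 4 was at 15.2 CPM, where the next library was at 3.34 CPM and the lowest at 2.17 CPM. Ly6c1 in WT ST-HFD replicate 3 was at 2.78 CPM, next to 1.88 CPM, from 11 counts. Itgam in IRF5-KO LT-HFD replicate 2 was at 437 CPM, with the others between 384 and 390.1 CPM.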

How the results depend on the processing

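The number of genes called between durations was 4 or 5 in WT and 6 or 7 in IRF5-KO in every alternative with all libraries, and 4 to 5 and 4 to 6 with any single library removed. It stayed at 0 for both genotype comparisons and the interaction in all alternatives. The replicate block, on ST-HFD numbers that deviated together and on numbers shared only by name elsewhere, left these counts at 0, 0, 4, 6 and 0, and in IRF5-KO between durations it gave Cx3cr1 an edgeR adjusted p of 0.0749 and Plac8 one of 0.0430. Log2 fold changes that turned direction were all ones that had not passed. On LT-HFD between genotypes, Plac8 was 0.28 with the replicate block and Cx3cr1 0.077 when scaled to macrophage markers, and the interaction of Itgam was 0.021 with that scaling. The cause was not tested. Leaving out each library gave -0.21 to 0.31 (Cx3cr1), -0.13 to 0.16 (Fn1) and -0.036 to 0.076 (Csf1r) on ST-HFD, -0.26 to 0.25 (Cx3cr1), -0.57 to 0.52 (Ly6c1) and -0.34 to 1.06 (Plac8) on LT-HFD, and -0.35 to 0.20 (Cx3cr1), -0.010 to 1.47 (Plac8) and -0.12 to 0.041 (Itgam) for the interaction. The log2 ratio of Ly6c2 to Ly6c1 between genotypes on ST-HFD was 0.21 with a smaller pseudocount and lay between -1.13 and 0.53 without single libraries. Among the 28 pairs, 0 to 1 passed without single libraries, 1 without IRF5-KO ST-HFD replicate 2 or 4 or WT LT-HFD replicate 4. Over all genes, the count between genotypes on LT-HFD was 2, but 8 with DESeq2, 6 without a filter and 0 with the replicate block, with macrophage scaling or in 6 of 8 fits without a single library (WT LT-HFD replicate 1, 2 or 3, IRF5-KO LT-HFD replicate 1, 3 or 4), and on ST-HFD it was 1, but 2 with DESeq2, without a filter, with the block or with all 16 libraries. Depth limits Ly6c2, Plac8 and, on ST-HFD, Ly6c1, whose counts per library were mostly under 30.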
